A study of Mus musculus with 32 samples.

Results

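The spots described here are those whose gene title contains the word kinase. They were chosen by title alone, with titles that start with EST (expressed sequence tag, a clone known from a short read) left out, and they number 76 of the 4696 gene spots on the array, or 1.62%. RNA was from mouse prefrontal cortex and was measured on 32 arrays. Each array carried 33P-labelled cDNA from 2 pooled adult mice, and each spot gave 1 intensity. The mice were of lines selected in opposite directions for how severe their withdrawal from ethanol is. The Withdrawal Seizure-Prone lines (WSP) show severe withdrawal and the Withdrawal Seizure-Resistant lines (WSR) mild withdrawal. Each phenotype was bred in separate breeding lines, WSP-1 and WSP-2 or WSR-1 and WSR-2, from heterogeneous HS/Ibg stock, and the mice were drug-naive adults of selected generation 26 before exposure.

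The 8 groups were female WSP given ethanol (EtOH), female WSP in air, female WSR given EtOH, female WSR in air, and the same 4 groups in males. Each group held 4 arrays, 2 pools from each of 2 breeding lines, and replicates 1 and 2 came from the first breeding line and replicates 3 and 4 from the second. EtOH mice were injected with ethanol at 1.5 g/kg, with a higher dose in WSP-2, and then breathed ethanol vapor for 72 h. Controls were kept in air chambers. Pyrazole, which slows the breakdown of ethanol, was given to all mice at 68.1 mg/kg, air controls included, and cortex was taken 21 days after exposure ended. The injected dose was thus not the same in both WSP breeding lines, and it was higher in WSP-2 than in WSR.

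Kinases transfer a phosphate group to a protein, a lipid or a small metabolite. Protein kinases act in chains in which 1 enzyme switches on the next, as in the MAP kinase cascades that carry signals from membrane receptors to the nucleus. In cortex they are known for their part in synaptic plasticity, where calcium/calmodulin-dependent kinases, protein kinase C and the ERK pathway respond to glutamate receptors. Ethanol is known to act on several of these receptors.

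By title, 12 spots belonged to MAP kinase cascades and ribosomal S6 kinases, 7 to tyrosine kinases without a receptor domain, 5 to cyclin-dependent kinases and 5 to protein kinase C, calcium/calmodulin-dependent and AMP-activated kinase subunits. Another 22 were other serine/threonine kinases, 2 were lipid kinases, 12 acted on metabolites, nucleotides or sugars, and 11 were proteins that bind, anchor or inhibit a kinase or are its substrate. No title was that of a receptor tyrosine kinase (0 spots). One spot titled protein tyrosine kinase 9 is Twf1, which encodes the actin-binding protein twinfilin, and the carboxykinase Pck1 was included because its title holds the word. A gene symbol could be given to 73 spots, which stood for 71 symbols since Cdk2 and Hipk1 had 2 spots each. The clone accession of 7 kinase spots was found among RefSeq gene synonyms. It named the same gene as the title for 6 of them and another gene, Farp2, for the spot titled Ste20-like kinase, which is therefore called by its title.

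A spot was called detected on an array when its intensity was at least 2 times the array's background. Each array had a single background value, which ranged over the arrays up to 30.3 intensity units with a minimum of 6.96. Detection differed widely between groups. Between 518 and 604 gene spots were detected on male WSP arrays and between 1682 and 2040 on male WSR arrays, with 588 to 1428 on female WSP and 783 to 1095 on female WSR arrays. Of the cortical markers on the array, Glul, of astrocytes, was detected on all 32 arrays. Grin1, of neurons, was detected on 8 arrays, all of them male WSR, and Syn1 on 11. Ttr, of the choroid plexus, was detected on 32. In pooled tissue RNA, fewer cells of a type and less RNA per cell cannot be told apart.

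Of the 76 kinase spots, 8 were detected on all 32 arrays, 18 on 4 to 31 arrays, 15 on 1 to 3 arrays and 35 on none. The 26 spots on at least 4 arrays made up 34.2% of the kinase spots. Among all gene spots 2084 of 4696 passed the same rule, or 44.4%, and 452 of the 1160 gene spots with a title that is not an EST passed. The undetected members included Camk4, a nuclear calcium/calmodulin-dependent kinase, whose spot reached at most 1.52 times background. Chuk, Map2k5, Map3k1, Rps6ka1, Prkag1 and Cdk7 were likewise detected on 0 arrays. A value near background on these arrays says only that the spot was not detectable.

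The spots nearest to the limit show how little separates them. Ksr1, a scaffold of the Raf, MEK and ERK kinases, was detected on 4 arrays, as were the muscle creatine kinase Ckm and Mapkapk2, a kinase that p38 MAP kinases activate. Mapk10, which encodes the neuronal kinase JNK3, was detected on 3 arrays, and so were Akap8l and Cdk16. The Mapk10 spot stood at 1.66, 2.86, 2.01 and 2.99 times background on the male WSR EtOH arrays, against 1.66, 1.39, 1.69 and 1.48 times on the male WSR air arrays. On the other 24 arrays it stood between 0.747 and 1.81 times background. The 3 arrays that detected Mapk10 were thus all male WSR EtOH arrays, while EtOH replicate 1 lay within the range of the air arrays. Gene spots of any title detected averaged 1956 on male WSR EtOH arrays and 1803 on male WSR air arrays. Ratios to background, here and below, are not normalized between arrays. Mapk10 was not tested because it was detected on too few arrays.

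The 8 kinase spots detected on every array included Pacsin2, Pnck, Cks1b, Srpk3, Hunk, Atr and the title serum/glucocorticoid regulated kinase-like. Pnck is a calcium/calmodulin-dependent kinase of the CaM kinase I family, Hunk an AMP-activated kinase relative, Srpk3 a kinase of splicing factors and Atr a kinase of the DNA damage checkpoint. Pacsin2 is a membrane-bending protein of endocytosis and a substrate of protein kinase C, and Cks1b a small subunit of cyclin-dependent kinases, so 2 of the 8 are not kinases.

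The intensity of these spots over background followed the arrays. The Pnck spot had a lowest, median and highest value of 18.8, 22.5 and 28.6 times background on the 8 male WSP arrays, against 115, 153 and 194 times on the 8 male WSR arrays. On female arrays it had 15.6, 85.3 and 162 times background in WSP and 37.2, 68.9 and 106 times in WSR. The male ranges do not overlap, while the female ranges do. The Atr spot was the nearest of the 8 to background on male WSP arrays. It had 2.23, 2.90 and 3.51 times background there, against 28.5, 35.6 and 45.5 times on male WSR arrays. All 8 spots were higher over background on each male WSR array than on any male WSP array.

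**Figure D1:**
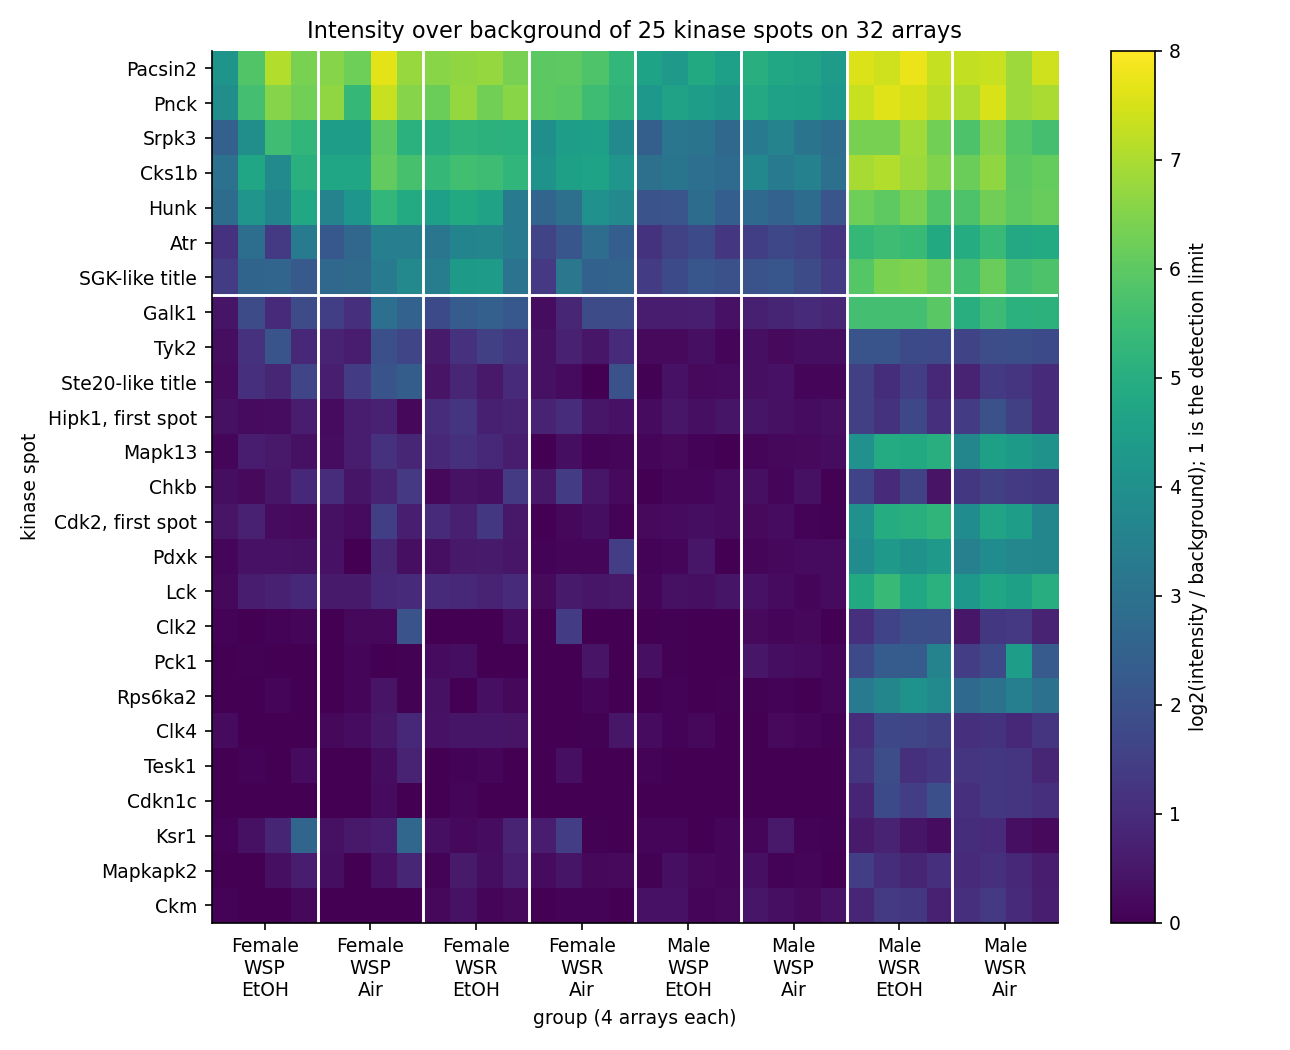
Log2 of intensity over background for 25 of the 26 kinase spots detected on at least 4 arrays (rows) on all 32 arrays (columns, 4 per group, with white lines between groups). Values below background are drawn at 0, and brightness is to be read along a row, not between rows. The top 7 rows pass the limit of 1 everywhere, and most of the other 18 pass it mainly in the male WSR columns.

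The number of kinase spots detected per array was set against the groups next. In females, 8, 11, 9 and 11 kinase spots were detected on WSP EtOH arrays, against 10, 11, 16 and 16 on WSP air arrays. On female WSR arrays 10, 12, 11 and 12 spots were detected with EtOH, against 9, 14, 9 and 14 in air. On male WSP arrays it was 8 on each of 4 EtOH arrays and 8 on each of 4 air arrays, and these were the same 8 spots throughout. On male WSR arrays 25, 26, 25 and 26 were detected with EtOH, against 24, 26, 24 and 19 in air. The EtOH and air counts overlap in every one of these groups.

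By a two-sided exact permutation test of EtOH against air (n = 4 each), the mean count differed by -3.5 spots in female WSP (p = 0.17), -0.25 in female WSR (p = 1.0), 0 in male WSP (p = 1.0) and 2.25 in male WSR (p = 0.20). After adjustment over the 4 comparisons none passed, the lowest adjusted p being 0.40. Between the lines, female arrays averaged 11.5 ± 2.98 spots in WSP and 11.4 ± 2.00 in WSR (SD, n = 8 each, two-sided exact permutation p = 1.0). Male arrays averaged 8.0 ± 0 spots in WSP and 24.4 ± 2.33 in WSR (SD, n = 8 each), a difference of -16.4. Its two-sided exact permutation p was 0.000155, the smallest this design can give, and 0.00031 after adjustment over the 2 sexes.

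The count of all gene spots detected was likewise lower on male WSP arrays. As a share of all gene spots detected on the same array, kinase spots made up 1.44% ± 0.0724 on male WSP arrays and 1.30% ± 0.0798 on male WSR arrays (SD, n = 8 each). The share was thus higher in WSP by 0.148 percentage points (two-sided exact permutation p = 0.0012, and 0.0025 after adjustment over the 2 sexes), the opposite direction to the count. Both figures lie below the 1.62% of gene spots that carry a kinase title.

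**Figure D2:**
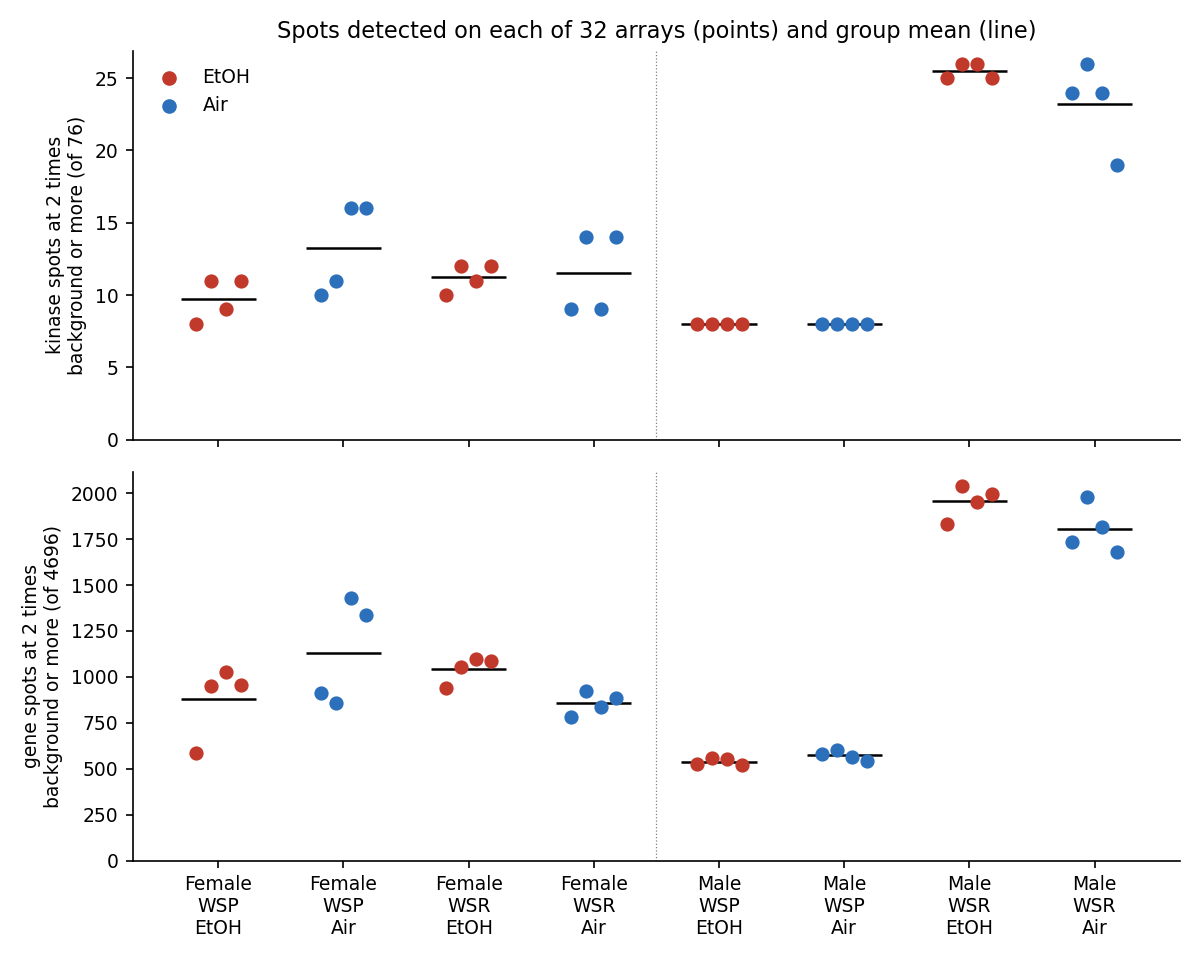
Number of kinase spots (top) and of all gene spots (bottom) detected on each array, with EtOH in red, air in blue and the group mean as a line. The 8 male WSP arrays each show 8 kinase spots, the 8 male WSR arrays show 19 to 26, and in the bottom panel the male WSR arrays are again above all others.

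Of the 18 kinase spots detected on 4 to 31 arrays, 18 were detected on no male WSP array, 8 were detected on male WSR arrays and nowhere else, and 15 had most of their detections there. Only 4 of the 18 were detected on at least 4 arrays outside male WSR. A spot that entered the tests through its detection on male WSR arrays had to be low elsewhere, so the number of such spots that differ between lines in males is no result about kinases. Over the whole array 469 of the 2084 gene spots tested were detected on male WSR arrays only.

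Mapk13 encodes p38 delta, a stress-activated MAP kinase. Its spot stood at 16.4, 30.1, 29.1 and 33.1 times background on male WSR EtOH arrays, against 12.8, 23.6, 20.7 and 16.8 times on male WSR air arrays. On male WSP arrays it stood at 1.11, 1.14, 1.04 and 1.01 times with EtOH, against 1.08, 1.13, 1.15 and 1.19 times in air. It was therefore bright on every male WSR array and at background on every male WSP array. On female arrays it lay between 1.09 and 2.19 times background in WSP and between 0.805 and 2.15 times in WSR.

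Rps6ka2 encodes RSK3, a ribosomal S6 kinase that ERK switches on. Its spot stood at 9.89, 12.8, 16.9 and 14.1 times background on male WSR EtOH arrays, against 6.65, 8.02, 10.9 and 7.86 times on male WSR air arrays. It stayed between 0.885 and 1.10 times background on male WSP arrays, between 0.891 and 1.34 times on female WSP arrays and between 0.731 and 1.29 times on female WSR arrays. No array outside male WSR detected it.

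Lck, the lymphocyte protein tyrosine kinase, is a Src family enzyme best known from T cells. Its spot stood at 29.3, 41.8, 27.1 and 34.8 times background on male WSR EtOH arrays, against 19.4, 26.6, 23.6 and 31.8 times on male WSR air arrays. On male WSP arrays it stood between 1.07 and 1.37 times, and on female arrays between 1.12 and 1.95 times in WSP and between 1.14 and 1.98 times in WSR. The groups are separated as for Mapk13. Of the other T cell markers on the array, Cd4 was detected on 0 arrays, with at most 1.10 times background on male WSP and 1.71 times on male WSR arrays. Thy1, which neurons also express, was detected on 11 arrays, 5 of them male WSR. The part of T cells in the Lck values was not tested.

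Cdk2 drives entry into S phase and had 2 spots, which disagreed. The first stood at 16.4, 30.8, 32.2 and 37.4 times background on male WSR EtOH arrays, against 14.7, 25.7, 21.9 and 12.7 times on male WSR air arrays. On all other arrays it stood between 0.693 and 2.79 times. The second stood at 1.80, 1.82, 1.46 and 1.60 times on male WSR EtOH arrays, against 1.42, 1.41, 1.59 and 1.37 times on male WSR air arrays, and passed 2 times background on 0 arrays. Elsewhere it stood between 0.606 and 1.25 times. For each of the Cdk2 spots, all 8 male WSR arrays lay above every other array. Which of the spots reports Cdk2 RNA was not tested.

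**Figure D3:**
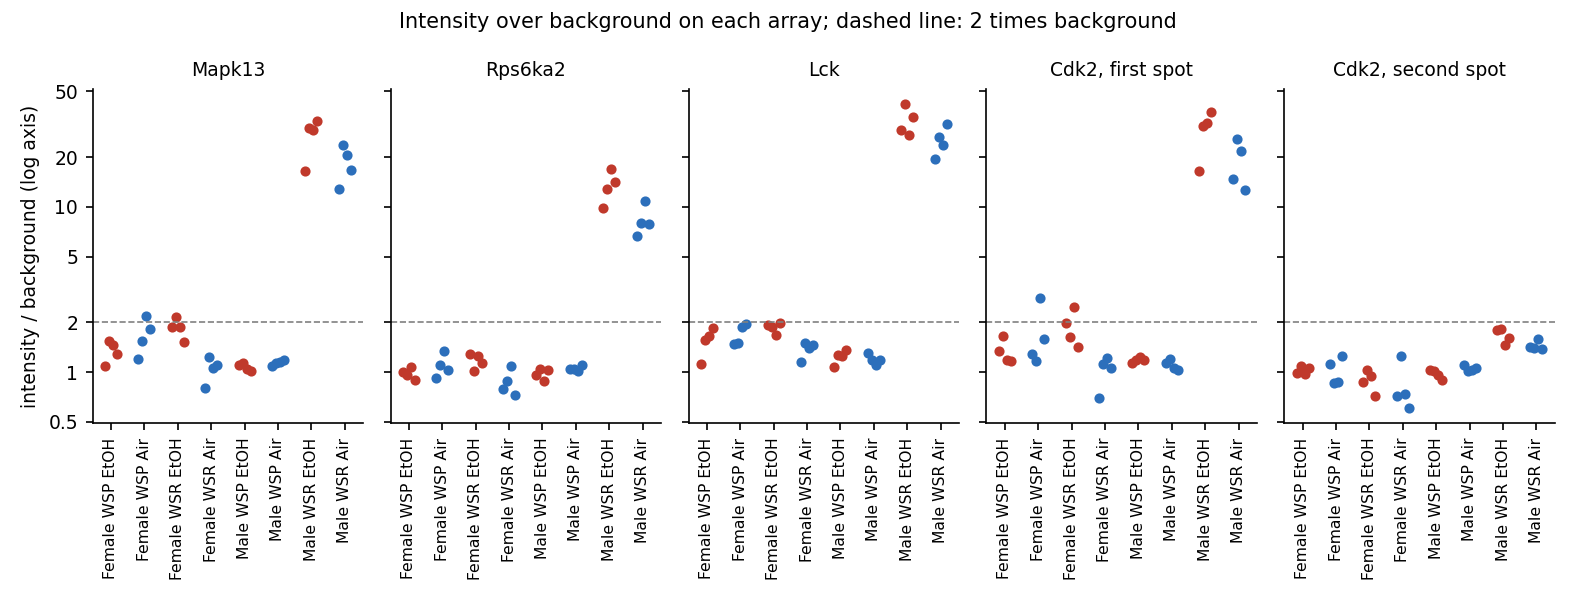
Intensity over background (log axis) on each of the 32 arrays for Mapk13, Rps6ka2, Lck and both Cdk2 spots, with EtOH in red, air in blue and a dashed line at 2 times background. Mapk13, Rps6ka2, Lck and the first Cdk2 spot stand above 6 times background on the male WSR arrays and near background elsewhere, while the second Cdk2 spot stays under 2 everywhere.

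The promoters of these 4 genes are shown because their spots shared 1 pattern over the groups. Such a pattern was common on the array, where 469 of the 2084 gene spots tested were detected on male WSR arrays only. Shared control of the 4 genes was not tested. Each stretch is 300 bases long and spans the start of the gene, most of it upstream, in RefSeq on mouse build GRCm38.p6, and Lck is given at the first of 2 listed starts. Capitals mark GGGCGG on either strand, the GC box that the factor Sp1 is known to bind. They are Mapk13 at chr17:28769067-28769366 on the plus strand, Cdk2 at chr10:128705002-128705301 on the minus strand, Rps6ka2 at chr17:7169865-7170164 on the plus strand and Lck at chr4:129573592-129573891 on the minus strand.
Mapk13: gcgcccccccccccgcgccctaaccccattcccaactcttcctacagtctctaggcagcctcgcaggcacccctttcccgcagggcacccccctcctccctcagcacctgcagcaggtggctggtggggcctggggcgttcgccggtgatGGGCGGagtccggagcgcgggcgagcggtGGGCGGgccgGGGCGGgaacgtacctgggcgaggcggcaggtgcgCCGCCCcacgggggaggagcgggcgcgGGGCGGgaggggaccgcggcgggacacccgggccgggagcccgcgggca
Cdk2: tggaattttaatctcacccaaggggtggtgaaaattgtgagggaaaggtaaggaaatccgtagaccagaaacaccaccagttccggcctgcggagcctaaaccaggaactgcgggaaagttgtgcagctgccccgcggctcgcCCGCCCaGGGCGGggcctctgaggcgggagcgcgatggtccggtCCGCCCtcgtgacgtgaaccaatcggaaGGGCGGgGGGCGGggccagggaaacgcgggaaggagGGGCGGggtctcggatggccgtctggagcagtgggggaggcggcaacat
Rps6ka2: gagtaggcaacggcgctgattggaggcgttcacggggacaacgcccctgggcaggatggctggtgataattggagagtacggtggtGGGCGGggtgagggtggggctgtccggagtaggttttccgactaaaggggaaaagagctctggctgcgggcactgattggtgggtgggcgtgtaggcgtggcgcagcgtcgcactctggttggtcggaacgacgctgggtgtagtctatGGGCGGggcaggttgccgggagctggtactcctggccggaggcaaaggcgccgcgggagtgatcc
Lck: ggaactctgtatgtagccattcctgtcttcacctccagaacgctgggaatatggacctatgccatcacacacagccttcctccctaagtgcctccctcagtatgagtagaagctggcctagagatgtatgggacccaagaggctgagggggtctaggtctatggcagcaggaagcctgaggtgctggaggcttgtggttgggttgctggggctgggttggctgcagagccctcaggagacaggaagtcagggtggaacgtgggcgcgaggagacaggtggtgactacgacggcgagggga

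The Mapk13 stretch held 5 matches to GGGCGG, the Cdk2 stretch 6, the Rps6ka2 stretch 2 and the Lck stretch 0, counted on both strands with overlaps allowed. The G and C content was 78.0% for Mapk13, 64.7% for Cdk2, 64.7% for Rps6ka2 and 58.3% for Lck. None held the cyclic AMP element TGACGTCA or the TATA motif TATAAA (0 matches in each). Of all 32851 promoters in the table, 35.7% held GGGCGG, 1.79% held TGACGTCA and 13.6% held TATAAA. The 94 promoters listed for 60 kinase symbols held them in 53.2%, 5.32% and 8.51% of cases. The 4 genes thus share no match to any of these 3 motifs.

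The remaining partly detected spots fell into a bright and a dim set on male WSR arrays. Among enzymes of metabolism, Galk1, which phosphorylates galactose, had a lowest, median and highest value of 1.32, 1.61 and 1.95 times background on male WSP arrays, against 32.1, 46.7 and 62.5 times on male WSR arrays. It was detected on 20 arrays in all. Pdxk, which makes the active form of vitamin B6, had 0.989, 1.11 and 1.39 times on male WSP arrays, against 11.3, 14.7 and 20.2 times on male WSR arrays. Pck1, an enzyme of gluconeogenesis, had 0.919, 1.13 and 1.41 times on male WSP arrays, against 2.74, 4.95 and 21.7 times on male WSR arrays. For Pck1 the 21.7 came from 1 air array, and the next highest value, 11.8, from 1 EtOH array.

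The dim set held 11 spots whose median on male WSR arrays was under 4 times background. They were Tyk2, a Janus kinase of cytokine receptors, Hipk1, Chkb, Clk2, Cdkn1c, Tesk1, Clk4, the Ste20-like title, Mapkapk2, Ckm and Ksr1. Clk2 and Clk4 phosphorylate splicing factors, Tesk1 acts on the actin regulator cofilin, and Cdkn1c is the cyclin-dependent kinase inhibitor p57. Ksr1 stood at 6.17 times background on female WSP EtOH replicate 4 and at 6.18 times on female WSP air replicate 4, and at no more than 2.74 times on any other array. Both high Ksr1 values were from WSP-2 females, 1 with EtOH and 1 in air. The second Hipk1 spot reached at most 1.54 times background and was detected on 0 arrays.

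The dim spots often lay next to bright ones on the array. On male WSR arrays, the brightest of the adjacent spots was brighter than the kinase spot itself for 10 of these 11 (not for Clk2), and it exceeded 50 times background for 8 of them, with a median of 82.4 times. For the 7 partly detected spots of at least 4 times background the neighbour's median was 6.48 times, and 1 neighbour exceeded 50, that of Pdxk at 55.9 times. The brightest neighbour stood at 1.97 times for Mapk13, 3.16 times for the first Cdk2 spot, 9.90 times for Lck and 31.6 times for Rps6ka2. For Mapk13, Cdk2 and Lck the neighbours were thus dimmer than the spot, and for Rps6ka2 brighter. Of the 8 spots detected on every array, 2 had a neighbour above 50 times background on male WSR arrays. Srpk3 had a median of 80.5 times there beside a neighbour at 160 times, and Cks1b 96.2 times beside a neighbour at 92.0 times. The part of neighbouring spots in the dim values, or in those of Srpk3 and Cks1b, was not tested.

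The test of ethanol asks which kinases differed 21 days after exposure ended, within each sex and line. Intensities were corrected for background, quantile normalized as log2 values over gene spots, and 1 model was fitted with limma over all 2084 spots detected on at least 4 arrays. A call is a Benjamini-Hochberg adjusted p under 0.05 over those spots. No p-value here goes beyond the spread among pools of mice. All values that follow are differences or levels of normalized log2 intensity, with EtOH minus air for the treatment and WSP minus WSR for the lines.

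No kinase spot passed the test between EtOH and air. Of 26 spots, 0 were called in female WSP, where 0.384% of all spots were called, 0 in female WSR (0.048% of all spots), 0 in male WSP (0.048%) and 0 in male WSR (0% of all spots). Over both sexes and lines 0 of 26 were called (0% of all spots), and 0 of 26 differed in their ethanol response between WSP and WSR (0.24% of all spots, of which 0.192% were higher and 0.048% lower). At an unadjusted p under 0.05 limma gave 0, 3, 0 and 3 kinase spots in female WSP, female WSR, male WSP and male WSR, 1 over all groups and 4 for the difference in response. Of all 2084 spots it gave 260, 270, 176 and 64 in the same order of groups, 98 over all groups and 262 for the response. With arrays scaled to 1 median, 1 kinase spot was called in female WSP, 1 in male WSR and 7 for the difference in response, where 7.10%, 6.86% and 27.4% of all spots were called. The median difference of the 26 spots lay between -0.03 in male WSP and 0.02 in male WSR, against -0.003 and 0.006 for all spots tested in those groups.

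Some spots came nearest to the threshold, and none passed it. In female WSR, Mapk13 had 6.19, 6.22, 6.08 and 5.95 with EtOH, against 5.76, 5.90, 5.85 and 5.86 in air. The difference was 0.27 ± 0.086 (SE, limma adjusted p = 0.27), and the groups did not overlap although all but 1 of the 8 values lay under 2 times background. The first Cdk2 spot differed there by 0.28 ± 0.11 (SE, limma adjusted p = 0.29), and the 4 EtOH arrays lay above the air mean. It was detected there on 1 EtOH array and 0 air arrays, so this difference too lay near background.

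In male WSR, Cks1b had 9.06, 9.30, 8.92 and 9.07 with EtOH, against 8.69, 8.81, 8.73 and 8.73 in air, again without overlap. The difference of 0.35 ± 0.14 had an unadjusted p of 0.017 and a limma adjusted p of 1.00 (SE, n = 4 each).

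In female WSP the smallest p was that of Pacsin2, with 9.55, 9.72, 10.04 and 9.82 with EtOH, against 9.88, 9.94, 10.28 and 9.94 in air. The difference was -0.23 ± 0.12 (SE, limma adjusted p = 0.45) and the groups overlapped. Cks1b differed there by -0.22 ± 0.14 (SE, limma adjusted p = 0.54). When arrays were scaled to 1 median in place of quantile normalization, Cks1b in female WSP passed the threshold, with a difference of -1.07 (limma adjusted p = 0.019) while the median of all spots moved by -0.12. In male WSP the smallest p-values were those of the first Cdk2 spot, 0.17 ± 0.11 (SE, limma adjusted p = 0.74), and the first Hipk1 spot, 0.15 ± 0.097 (SE, limma adjusted p = 0.75). Neither spot was detected on any male WSP array, so both differences are between values near background.

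Over all groups, the first Cdk2 spot differed by 0.15 ± 0.053 (SE, unadjusted p = 0.0062, limma adjusted p = 0.86) and Chkb, a choline kinase, by -0.11 ± 0.058 (SE, limma adjusted p = 0.86). Each was detected on 10 of the 32 arrays, 8 of them male WSR for Cdk2 and 6 for Chkb. The difference in response between the lines was -0.42 ± 0.14 for Cks1b (SE, limma adjusted p = 0.20) and -0.24 ± 0.086 for Mapk13 (SE, limma adjusted p = 0.24). WSP-2 mice were injected with more ethanol than WSR mice, so line and dose cannot be fully told apart in this comparison. The EtOH minus air difference of Cks1b was -0.22 in female WSP, -0.15 in male WSP, 0.11 in female WSR and 0.35 in male WSR, so both WSP groups lay below 0 and both WSR groups above it. Cks1b is named for having the smallest p of the kinase spots in the response comparison, which is made of these same differences. Their signs therefore lend it no further support.

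For the 8 kinase spots detected on every array, the 95% intervals of the EtOH difference reached from -0.50 to 0.54 in female WSP, from -0.45 to 0.71 in female WSR, from -0.56 to 0.47 in male WSP and from -0.84 to 0.70 in male WSR. With all groups together they reached from -0.29 to 0.31. These are the outermost bounds over the 8 spots, and single intervals were narrower. They hold for quantile normalization only. The difference of Cks1b in female WSP with median scaling, given above, lay outside the bounds for that group.

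**Figure D4:**
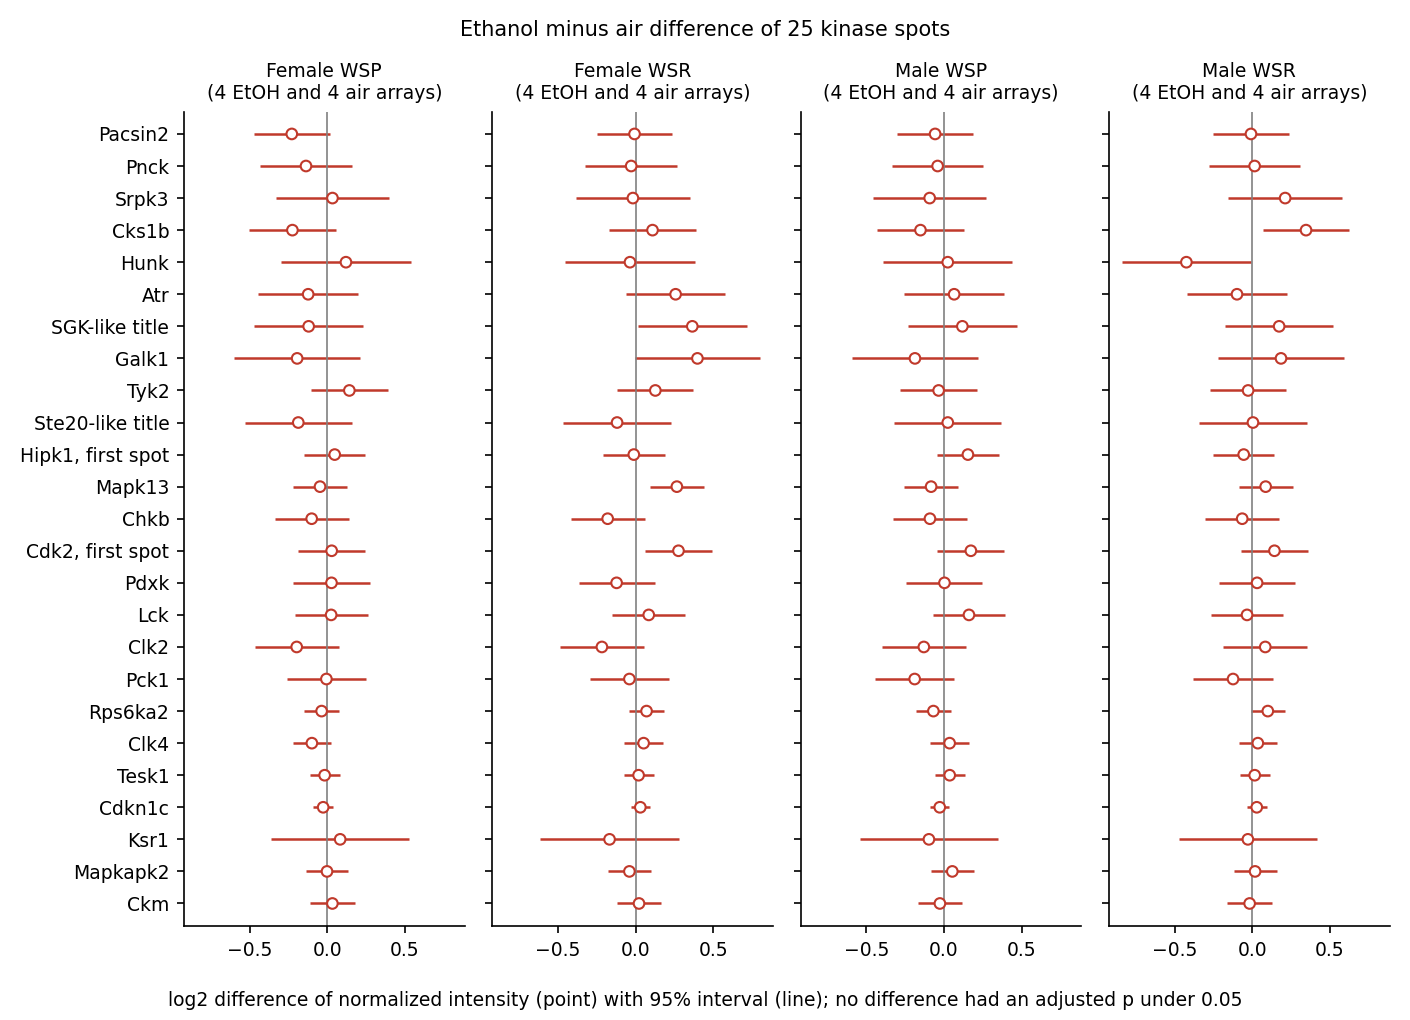
EtOH minus air difference of normalized log2 intensity (points) with its 95% interval (lines) for 25 of the 26 kinase spots in female WSP, female WSR, male WSP and male WSR (4 EtOH and 4 air arrays each). No difference had an adjusted p under 0.05, with the highest at 0.40 for Galk1 in female WSR and the lowest at -0.42 for Hunk in male WSR.

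The second question of the design is how the lines differ. In males, 13 of the 26 kinase spots were called between WSP and WSR, where 58.3% of all spots tested were called, 11 of them lower in WSP and 2 higher (34% and 24.4% of all spots). In females 1 of 26 was called, and it was lower in WSP, against 12.1% of all spots, of which 4.56% were lower and 7.53% higher. With sexes and treatments together 10 of 26 were called (54.4% of all spots), all 10 lower in WSP and 0 higher (32% and 22.4% of all spots). The difference between lines itself differed between males and females for 10 of 26 spots, 8 of them lower and 2 higher, against 53.1% of all spots (32.3% lower and 20.7% higher). Whether these counts set kinases apart from the array was not tested. Among the 12 kinase spots detected on at least 4 arrays outside male WSR, 3 were called in males (Galk1, Cks1b and the serum/glucocorticoid regulated kinase-like title), 0 in females, 2 over both sexes and 1 between the sexes. Of the 1227 gene spots under the same condition, 56.1% were called in males, 17.4% in females, 52.0% over both sexes and 50.8% between the sexes. With the authors' deposited score, which tested 19 kinase spots, 11 were called over both sexes (8 lower in WSP and 3 higher, with 70.1% of all spots called) and 11 in males (8 lower and 3 higher, 61.3% of all spots). The breeding lines of each phenotype were pooled in these counts, and pools of 1 breeding line are not independent samples of the selected phenotype.

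Mapk13, Rps6ka2, Lck and the first Cdk2 spot were above 2 times background on 8 of 8 male WSR arrays and on 0 of 8 male WSP arrays. They were detected on 2, 0, 0 and 2 arrays outside male WSR, so they entered the fit only through the group in which they are bright. Their difference between male lines was fixed by that entry and measured against background, and no difference or p-value is given for it. Arrays of both WSR breeding lines were bright, as the values by array above show. Since entry rested on these arrays, this only describes them and lends no support to a line difference.

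The same holds for Pdxk, Pck1, Cdkn1c and Tesk1, which were called lower in male WSP and were detected on 1, 0, 0 and 0 arrays outside male WSR. It holds also for the calls between the sexes, in which 3 of the 4 groups lay near background for these spots.

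Galk1 was detected on 12 arrays outside male WSR. It was under 2 times background on every male WSP array, so its level there is a bound. It was at least 1.35-fold lower in male WSP, with measured means of 6.71 in WSP and 7.49 in WSR (limma adjusted p = 1.8e-05).

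Among spots detected on every array, for which a level was measured in both lines, the serum/glucocorticoid regulated kinase-like title differed by -0.49 ± 0.12 in males (SE, limma adjusted p = 0.00080) and Cks1b by -0.28 ± 0.097 (SE, limma adjusted p = 0.013). Cks1b averaged 8.63 ± 0.15 in male WSP and 8.91 ± 0.21 in male WSR (SD, n = 8 each). With the authors' deposited score, the Cks1b difference had the other sign, 0.34 score units (limma adjusted p = 0.13). Cks1b is named here after its values were seen. Of the other 6 always-detected spots, among them Pacsin2, Pnck, Srpk3, Hunk and Atr, none was called in males, their differences lying between -0.14 and 0.24. With the authors' score Pacsin2 and Pnck were called higher in male WSP, by 2.42 and 2.19 score units, and Atr lower, by -1.54. Over background, Pacsin2 and Pnck had the opposite order, with medians of 25.3 and 22.5 times in male WSP, against 165 and 153 in male WSR. Atr had the same order. The score rose by 1.82 to 2.03 units per log2 unit of signal on male WSP arrays, against 0.919 to 1.02 on male WSR arrays. The part of these slopes in the score differences, that of Cks1b included, was not tested.

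Ckm and the first Hipk1 spot were called higher in male WSP, although neither was detected on any male WSP array, and they were detected on 0 and 3 arrays outside male WSR. The Ckm spot stood at 1.08 to 1.39 times background on male WSP arrays, against 1.58 to 2.58 times on male WSR arrays, the opposite order to the normalized values. The Ckm difference was 0.23 with quantile normalization, -0.078 with median scaling and -0.028 with cyclic loess. The direction of Ckm therefore turned with the scaling. The Hipk1 difference was 0.25 with quantile normalization, 0.02 with cyclic loess and -0.23 with median scaling, under which the median of all spots was -0.69.

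Median scaling moved the median of all spots by -0.69 between the lines in males, by -0.42 over both sexes and by -0.10 in females. Under it 24 of 26 kinase spots were called in males and all 24 were lower in WSP, against 11 lower and 2 higher with quantile normalization, and 23 of 26 were called over both sexes, all lower. Under it 86.6% of all spots were called in males and 83.9% over both sexes.

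In females the called spot was the first of Hipk1, a nuclear kinase that binds homeodomain factors. It had normalized values of 6.07, 5.82, 5.86 and 6.02 with EtOH and 5.84, 6.06, 5.89 and 5.78 in air in WSP. In WSR it had 6.25, 6.30, 5.99 and 6.02 with EtOH and 6.28, 6.28, 6.06 and 5.98 in air. The difference was -0.22 ± 0.069 (SE, limma adjusted p = 0.027), the 8 WSP arrays lay below the WSR mean, and the groups overlapped. WSR-1 averaged 6.27 and WSR-2 6.01, against 5.95 in WSP-1 and 5.89 in WSP-2. The spot was above 2 times background on 3 of the 8 female WSR arrays and on 0 of the 8 female WSP arrays, so a low group here is again a bound and no fold is given. The call was lost with cyclic loess (limma adjusted p = 0.055), with female arrays fitted alone (0.085) and without replicate 1, 2 or 3 (0.11, 0.20 and 0.099).

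**Figure D5:**
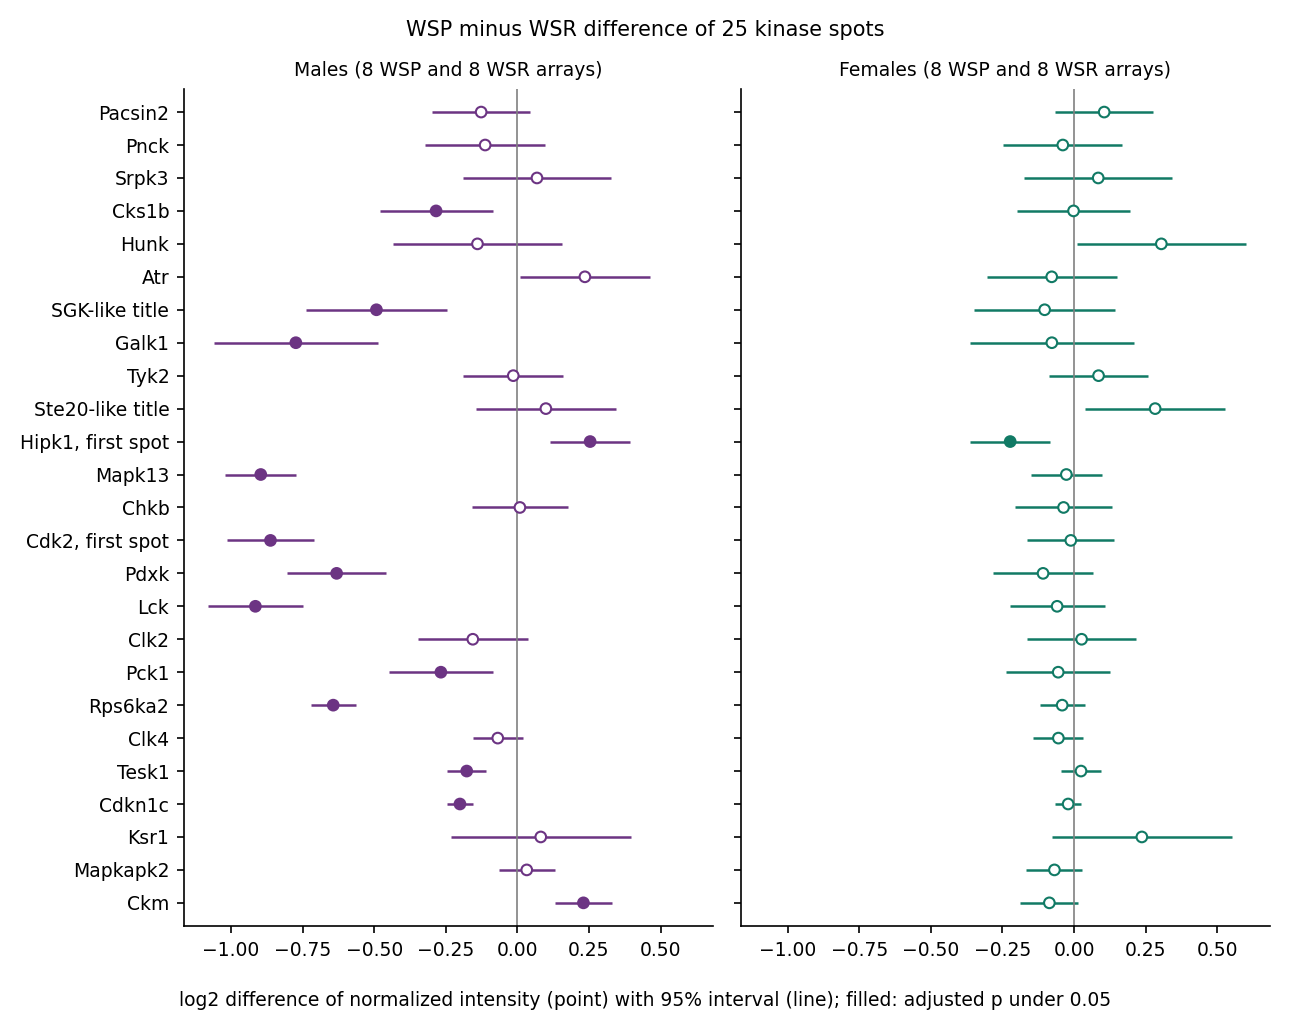
WSP minus WSR difference of normalized log2 intensity (points) with its 95% interval (lines) for 25 of the 26 kinase spots in males (left) and females (right), 8 arrays per line and sex, with filled points for an adjusted p under 0.05. Only the top 7 spots were above 2 times background on male WSP arrays, and for the others the male difference is measured against background. In females all 25 lie between -0.22 and 0.30.

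Titles of phosphatases, cyclins, calmodulin and 14-3-3 proteins were listed beside the kinases, by title alone. Of 19 titles with the word phosphatase, 2 were detected on at least 4 arrays and 13 on none. Of all gene spots, 44.4% were detected on at least 4 arrays and 38.3% on none. Of 5 titles of cyclins 2 passed, cyclin D3 on 20 arrays and cyclin G2 on 15, and of 2 titles of calmodulin and 14-3-3 proteins 1 passed, calmodulin on 13 arrays. None of these 5 spots was called for ethanol (0 in each group). Cyclin G2, detected on 3 of 8 female WSP and 4 of 8 female WSR arrays, had a lower normalized value in female WSP. The cyclin G2 spot reached at most 3.88 times background on any array, so the values compared lay near background. Its difference was -0.31 ± 0.085 (SE, limma adjusted p = 0.012), in a comparison that called 12.1% of all spots. Cyclin D3 was detected on 0 of 8 male WSP and 8 of 8 male WSR arrays. Calmodulin, the calcium sensor that activates CaM kinases, was detected on 4 of 8 male WSP and 8 of 8 male WSR arrays. Its normalized value was higher in male WSP by 0.79 ± 0.084 (SE, limma adjusted p = 1.4e-09), the opposite order to its detection. On the male WSP arrays that did not detect it, its level is a bound. The direction of calmodulin under other scalings is not given here. The female difference of calmodulin was -0.21 ± 0.084 (SE, limma adjusted p = 0.11), with detection on 0 of 8 WSP and 1 of 8 WSR arrays. Of the phosphatase titles, phosphodiesterase I/nucleotide pyrophosphatase 2 differed by 0.72 ± 0.13 in males (SE, limma adjusted p = 2.3e-05) and was detected on every array. The male comparison called 58.3% of all spots. In females the pyrophosphatase 2 title had the opposite sign, -0.15 ± 0.13 (SE, limma adjusted p = 0.54). Its difference under other scalings is not given here. Protein tyrosine phosphatase 4a3 was detected on male WSR arrays only (8 of 8).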

How the data were processed

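RNA was measured on 32 single-channel arrays of 5355 spots, 4 arrays in each of 8 groups taken from the sample titles. The deposited intensities are 1 signal per spot and 1 background per array, per the file headers. The series table holds the authors' processed score per spot, which rose linearly with log2 signal within each array. Slopes differed between arrays, from 0.919 on male WSR EtOH replicate 3 to 2.03 on male WSP EtOH replicate 4. The scaling of the score is not stated, and no source used here names the platform or scanner. One array file lists its spots in another order, so arrays were joined by spot number.

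Background was corrected with normexp (offset 50), and log2 values were quantile normalized over 4696 gene spots. The filter kept 2084 spots that reached 2 times background on 4 or more arrays. The model had 8 group means and 24 residual degrees of freedom (limma 3.58.1, R 4.3.3, eBayes with intensity trend), with Benjamini-Hochberg adjustment over all 2084 spots. It was tested on simulated data. Detection counts were compared by two-sided exact permutation tests (scipy 1.17.1). Figures used matplotlib 3.10.9. The number of arrays limits the precision.

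The kinase titles, gene lists and tests were chosen with earlier results of these data known. Named spots are Mapk13, Rps6ka2 and Lck, those called in a comparison (at most the 10 with the smallest p, or the 2 with the smallest p where none was called), the 6 with the highest mean, those detected on all 32 arrays and those beside the detection limit. The other values shown belong to spots chosen after their values were seen. Alternatives covered background correction, normalization, the filter, the authors' score, the breeding line and arrays left out. Replicate numbers mark breeding line and pool. Deviations of same-numbered EtOH and air arrays correlated between -0.10 and 0.41, so the numbers were not taken to pair the arrays. In male WSR, EtOH arrays had mean correlations of 0.41, 0.14, 0.09 and 0.34 with air arrays of the same breeding line. With the other breeding line they were -0.36, -0.12, -0.10 and -0.39. Female WSP had the same signs, and female WSR and male WSP had mixed signs. The main model held no term for breeding line, and fits with one are given below. Some spots are counted but not reported by name here.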

Additional observations from a re-analysis of the deposited data

Results flagged for a closer look

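Among the named spots, 9 single normalized log2 values stood apart from the other 3 of their group, of 160 sets of 4 values examined, and chance sets apart about 1 set in 20. In male WSP EtOH they were Cdkn1c at 5.66 on replicate 1 and Pdxk at 6.37 on replicate 3. In male WSR EtOH it was Atr at 6.86 on replicate 4. In female WSP they were Pdxk at 5.85 on EtOH replicate 1 and Pacsin2 at 10.3 on air replicate 3. In female WSR EtOH they were Chkb at 6.32 on replicate 4 and Tesk1 at 5.82 on replicate 3. In female WSR air they were Pnck at 9.44 on replicate 3 and Pdxk at 6.58 on replicate 4.

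For 10 spots the WSP minus WSR difference was called as different between males and females by limma's interaction contrast. All 10 were under 2 times background on every male WSP array, and all but Galk1 entered the fit only through male WSR arrays, so for the other 9 the values only describe the fit and support nothing. The difference in males minus that in females was -0.87 for Mapk13, -0.86 for Lck, -0.85 for the first Cdk2 spot, -0.70 for Galk1, -0.60 for Rps6ka2 and -0.52 for Pdxk on the log2 scale. It was -0.20 for Tesk1 and -0.18 for Cdkn1c. It was above 0 for the first Hipk1 spot (0.48) and Ckm (0.32).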

How the results depend on the processing

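Counts are of the 26 kinase spots unless stated. With median scaling the called spots numbered 1 for EtOH in female WSP, 1 in male WSR, 7 for the response between lines, 23 between lines over both sexes, 6 in females, 24 in males and 20 between the sexes. The same scaling called 7.10%, 6.86%, 27.4%, 83.9%, 36.4%, 86.6% and 77.4% of all spots in that order. With the authors' score, which tested 19 kinase spots, it was 11 over both sexes, 1 in females, 11 in males and 13 between the sexes, and 2 of 8 calls in males (Hipk1 and Cks1b) changed sign without being called. Of the 12 kinase spots detected on at least 4 arrays outside male WSR, 2 were called over both sexes, 0 in females, 3 in males and 1 between the sexes. The female count was 0 with cyclic loess, 2 with no filter (76 spots tested) and 0 with female arrays alone. Leaving out 1 replicate number gave 0 to 2 in females, 9 to 12 over both sexes, 12 to 14 in males and 10 to 12 between the sexes. Leaving out single arrays, chosen after seeing the data, gave 0 in females without female WSP EtOH 2 or 3, WSP air 4, WSR EtOH 1 or 2, or WSR air 1 or 2, and 2 without WSP air 1 or WSR air 4. Counts of kinase spots detected in males, as a share of detected spots, turned to 0.148 percentage points. Ckm in males turned to -0.078 with median scaling and -0.028 with cyclic loess, and its sex difference to -0.032 with median scaling. The sex difference of the first Hipk1 spot turned to -0.020 with median scaling. With a replicate block of breeding line, 10 spots were called over both sexes, 1 in females, 13 in males and 10 between the sexes, and with breeding line and pool 12, 1, 13 and 11. Both gave 0 for EtOH. The causes were not tested. Most kinase spots were near background outside male WSR, which limits every line difference there.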
